A study of Tetranychus urticae with 4 samples.

Results

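Chitin synthase 1 of the two-spotted spider mite Tetranychus urticae was followed in adult females as a single gene, the row tetur03g08510, 1 of the 18020 gene identifiers of the deposited count table. The row was taken by its identifier and not by a threshold on any measured value, although earlier results of these data were known. It passed the filter on low counts. Messenger RNA had been sequenced from the dissected proterosoma of 250 adult females, in 1 library, and from intact adult females, in 3 libraries of 100 animals each. Every library came from the London strain, a laboratory strain of this plant-feeding mite, and the labels name no treatment. The proterosoma is the front body with the mouthparts, and the series was made to find genes of the salivary glands that lie in it. Each library pooled many animals, an intact female also contains her own front body, and the labels give neither age nor feeding state.

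Chitin is the fibre of the arthropod cuticle, a polymer of N-acetylglucosamine built by chitin synthase, an enzyme embedded in the cell membrane that adds sugar units from UDP-N-acetylglucosamine and extrudes the chain. In insects, the class of enzyme called chitin synthase 1 serves the epidermis and the tracheae, whereas a second class serves the lining of the midgut. In spider mites, chitin synthase 1 is known as the target of the growth inhibitors etoxazole, clofentezine and hexythiazox, which stop eggs and immature stages from developing. Adult females no longer moult. The name of the gene comes from the literature on this mite. The deposited files hold no gene names, and of the 18020 identifiers 0 were found in the RefSeq gene table used here, so the name, the length of the gene and the other genes of chitin synthesis and breakdown could not be read from the data. Markers of front-body tissue were not checked here.

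Chitin synthase 1 was read in all 4 libraries and stood higher in the front body than in the intact animal. The gene had 456 reads in the proterosoma, against 148, 74 and 63 reads in whole-body replicates 1, 2 and 3. Total counts were 19667380 in the proterosoma and 23647775, 12356237 and 11630954 in the whole-body libraries. In CPM, which are counts brought to a common library size (here scaled by TMM, a method that aligns the bulk of the genes between libraries), the level was 31.2 in the proterosoma, against 5.48, 5.46 and 5.05 in the whole-body libraries. The proterosoma value thus lay far above a tight group of whole-body values, and the groups did not overlap. Among all 13278 genes tested, the proterosoma value lay above every whole-body value for 46.9%.

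Counting error was small beside this gap. The exact 95% Poisson interval was 28.4 to 34.2 CPM in the proterosoma library. In whole-body replicates 1, 2 and 3 it was 4.63 to 6.44, 4.28 to 6.85 and 3.88 to 6.46 CPM, so those intervals overlapped one another and none reached the proterosoma interval. The whole-body mean was 5.33 ± 0.242 CPM (SD, n = 3), a coefficient of variation of 4.53%, where counting alone would give about 10.9%. Such intervals cover counting error only. The reads carry no molecular identifiers, so the intervals treat every read as a separate molecule.

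**Figure D1:**
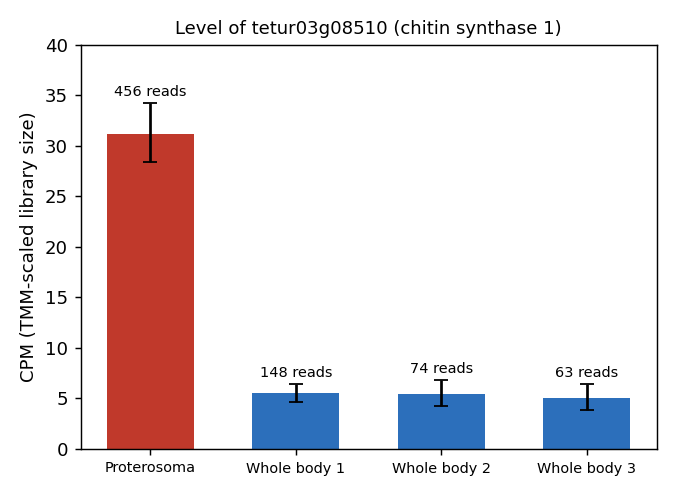
Level of tetur03g08510 in each library, in CPM on TMM-scaled library sizes, with the number of reads above each bar; bars are single libraries and error bars are exact 95% Poisson intervals. The proterosoma bar stands at 31.2 CPM and the whole-body bars at 5.05 to 5.48 CPM.

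The gene rose in the proterosoma by 2.54 ± 0.13 on the log2 scale (SE), which is 5.82-fold (edgeR quasi-likelihood test, adjusted p = 8.97e-06). The 3 whole-body libraries alone gave the spread behind this test, with the single proterosoma library taken to vary as they do, so the difference has no replicate check on the proterosoma side. Against each whole-body library on its own, the proterosoma level was 5.69, 5.72 and 6.17 times as high for replicates 1, 2 and 3. The interval of the fold that counting error alone allows was 4.99 to 6.75. Without whole-body replicate 1, 2 or 3 the log2 fold was 2.57, 2.55 or 2.49. In the authors' deposited table the log2 fold of the gene was 2.52 with an error of 0.27. Because these are bulk samples, a larger share of chitin synthase 1 cells and more of its messenger per cell cannot be told apart.

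A rise of this kind was common in this comparison: 41.0% of the 13278 genes tested were called higher in the proterosoma and 20.7% were called at least 4-fold higher. A larger log2 fold than that of chitin synthase 1 was found for 2185 genes, or 16.5% of those tested, beside a median log2 fold of -0.03 over all of them. Among the 1129 genes whose whole-body level lay between 3.77 and 7.54 CPM, around its own, 234 genes or 20.7% had a larger fold. In that group the median log2 fold was 0.48, with quartiles at -1.34 and 2.12. The gene thus sat above the upper quartile of genes of like whole-body level, and well inside the range that those genes covered.

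**Figure D2:**
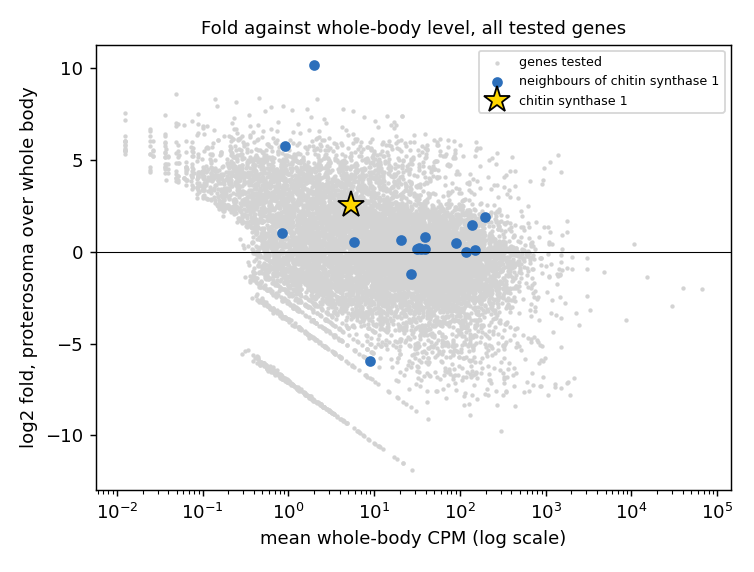
Log2 fold of proterosoma over whole body against the mean whole-body CPM (log scale) for the tested genes with at least 1 whole-body read; the star is chitin synthase 1 and the filled blue points are its tested neighbours on scaffold 3. The star, at 5.33 CPM and a log2 fold of 2.54, lies in the upper part of the grey cloud but inside it.

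By number of reads, chitin synthase 1 was a gene of higher rank in the front body than in the intact animal, where it stood near the middle. It ranked 4943 of 18020 identifiers in the proterosoma, against 8693, 8679 and 8866 in whole-body replicates 1, 2 and 3. These places correspond to the top 27.4% in the proterosoma and to the top 48.2%, 48.2% and 49.2% in the whole-body libraries. The ends of the counting intervals would place it between 4688 and 5232 in the proterosoma and between 8343 and 9300 in the whole-body libraries, so the shift in rank exceeded counting error. Ranked by its mean whole-body share of reads it held place 8775, which is 3832 places below its proterosoma place.

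Many identifiers had no read, and among genes that had any the gene stood lower: it was in the top 33.9% of 14594 such genes in the proterosoma, against the top 58.1%, 60% and 61.5% of 14969, 14458 and 14407 such genes in the whole-body libraries. On scaffold 3 alone, which carries 945 identifiers, it ranked 266 in the proterosoma, against 442, 440 and 449 in the whole-body libraries. These ranks are of reads and not of messenger molecules, since a long gene collects more reads than a short one at the same number of molecules and gene lengths were not used here.

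Scaling bears on the size of the rise, since most genes differed between the body parts. On library size alone, which moved the median log2 fold of all genes by -0.57, the level was 23.2 CPM in the proterosoma, against 6.26, 5.99 and 5.42 CPM in the whole-body libraries. The log2 fold was then 1.97, which is 3.92-fold (edgeR adjusted p = 2.93e-05). A change of scaling shifts the log2 folds of all genes by nearly the same amount, so it bears on the size of the fold and hardly on the order of the genes.

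Reads of common reference genes gave a yardstick that uses no scaling between libraries. For every 1000 reads of tetur18g03590, the ribosomal protein gene RP49, there were 90.5 chitin synthase 1 reads in the proterosoma, against 16.3, 14.6 and 18.7 in whole-body replicates 1, 2 and 3. That is 5.47 times the whole-body mean of 16.6 ± 2.05 (SD, n = 3). For every 1000 reads of tetur03g06910, a ubiquitin gene, there were 8.3 in the proterosoma, against 3.01, 3.03 and 2.9 in the whole-body libraries, a ratio of 2.78. With both yardsticks the proterosoma value lay above all whole-body values, but the size of the difference depended on the yardstick.

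The yardsticks themselves differed. RP49 stood at 344 CPM in the proterosoma and 326 ± 52.3 CPM in intact females (SD, n = 3), a log2 fold of 0.08 ± 0.19 (SE) that did not pass the test (edgeR adjusted p = 0.715). The ubiquitin gene rose, at 3760 CPM in the proterosoma and 1790 ± 40.5 CPM in intact females (SD, n = 3), by 1.07 ± 0.14 on the log2 scale (SE, edgeR adjusted p = 6.23e-04). On library size alone the log2 fold was -0.49 for RP49 (edgeR adjusted p = 0.0664), turning its sign, and 0.50 for the ubiquitin gene (edgeR adjusted p = 0.0177). The names of both genes come from their use as reference genes in this mite and not from the files.

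No whole-body library was called different from the others in chitin synthase 1. Tested against the other whole-body libraries, with 1 residual degree of freedom, replicate 1 had a log2 difference of 0.06 with a standard error of 0.20, replicate 2 one of 0.04 with 0.26 and replicate 3 one of -0.12 with 0.21. The edgeR adjusted p-values were 0.999, 0.999 and 0.901. With so few libraries this does not show that they were alike. Over all genes the same tests called 0%, 1.54% and 0.00818% of 12228 genes.

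The 10 identifiers on either side of chitin synthase 1 ran from tetur03g08410 to tetur03g08620 on scaffold 3, in the order of their serial numbers, with no check of that order on a genome map. Of these 20 neighbours, 17 had enough reads to be tested. Called higher in the proterosoma were 8 of the 17, or 47.1%, against 41.0% of all genes, and 2 were called lower, or 11.8%, against 40.4% of all genes; the other 7 did not pass the test. The median log2 fold of the tested neighbours was 0.47, beside -0.03 over all genes. The share called higher was thus near that of all genes. On library size alone, however, 4 of the 17 were called higher, or 23.5%, against 31.2% of all genes under that scaling, and 7 lower, or 41.2%, against 52.2%, the difference coming from genes whose log2 fold under TMM lay between -0.04 and 1.05. Called in the same direction under all 4 scalings were 4 higher and 2 lower neighbours. The share of all genes meeting that rule is not given here, so whether these counts are usual was not tested.

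Chitin synthase 1 held place 3 by log2 fold among the 18 tested genes of its window, and only tetur03g08440 and tetur03g08450 exceeded it. Neither of the identifiers directly next to it was called higher. The next identifier below it, tetur03g08500, fell, at 11.8 CPM in the proterosoma and 27 ± 2.1 CPM in intact females (SD, n = 3), from 172 reads against 773, 334 and 346. The log2 fold was -1.20 ± 0.14 (SE, edgeR adjusted p = 3.4e-04). The next identifier above it, tetur03g08520, was hardly read at all, with 1 read in the proterosoma and 2, 4 and 0 in the whole-body libraries, too few for a test.

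**Figure D3:**
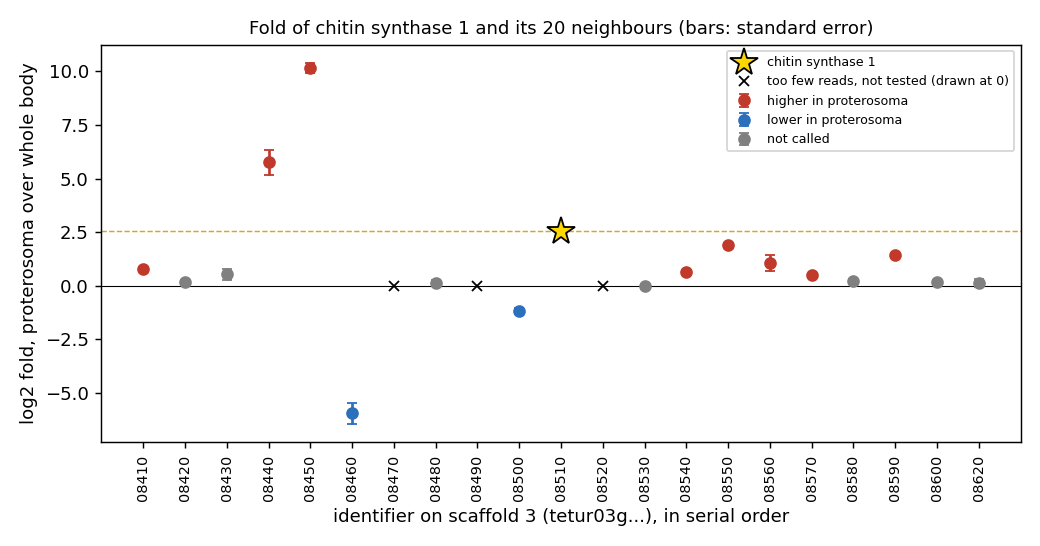
Log2 fold of proterosoma over whole body, with its standard error, for the tested genes among chitin synthase 1 (star) and its 10 identifiers on either side, in serial order; crosses are genes with too few reads to test. The dashed line marks the log2 fold of 2.54 of chitin synthase 1, which tetur03g08440 (5.76) and tetur03g08450 (10.17) exceed.

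Both genes with larger folds lay on the lower-numbered side. For tetur03g08450 there were 35080 reads in the proterosoma, against 70, 22 and 22 in whole-body replicates 1, 2 and 3, and its reads made up 56.3% of all proterosoma reads of the window. The log2 fold was 10.17 ± 0.24 (SE, edgeR adjusted p = 1.19e-06). For tetur03g08440 there were 641 reads in the proterosoma, against 8, 29 and 4 in the whole-body libraries, so whole-body replicate 2 was well above the other two. The log2 fold was 5.76 ± 0.59 (SE, edgeR adjusted p = 1.93e-04), which is 54.3-fold; it was 140-fold without replicate 2 and 34.6-fold without replicate 1. That gene was also the 1 gene of the window called different in replicate 2 against the other whole-body libraries.

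The next identifier in line ran the other way. For tetur03g08460 there were 2 reads in the proterosoma, against 264, 99 and 124 in the whole-body libraries. The log2 fold was -5.97 ± 0.50 (SE, edgeR adjusted p = 8.13e-05), which rests on those 2 proterosoma reads. The window therefore held a gene far higher and a gene far lower in the proterosoma side by side, 6 and 5 places from chitin synthase 1. At least 4-fold higher were 2 of the 17 tested neighbours, against 20.7% of all genes, and at least 4-fold lower was 1, against 16.9%.

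On the higher-numbered side, 5 of 9 tested neighbours were called higher and 0 lower, and on the lower-numbered side 3 of 8 were called higher and 2 lower, beside 41.0% higher and 40.4% lower over all genes. The folds of the 5 were smaller than that of chitin synthase 1. The highest was tetur03g08550, 4 places away, with 728 CPM in the proterosoma and 195 ± 6.71 CPM in intact females (SD, n = 3). It had 10643 reads in the proterosoma, against 5130, 2743 and 2387, the most reads of any neighbour in whole bodies, and a log2 fold of 1.90 ± 0.10 (SE, edgeR adjusted p = 1.07e-05). For tetur03g08590, 8 places away, the level was 382 CPM in the proterosoma and 140 ± 5.34 CPM in intact females (SD, n = 3), a log2 fold of 1.45 ± 0.09 (SE, edgeR adjusted p = 2e-05). Both kept their direction and their call under all 4 scalings.

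The other 3 were tetur03g08540, tetur03g08560 and tetur03g08570, with log2 folds of 0.62, 1.05 and 0.47, which became 0.05, 0.47 and -0.10 on library size alone and were then not called. Of these, tetur03g08560 rested on 27 reads in the proterosoma, against 28, 12 and 8, and it lost its call without whole-body replicate 3 (edgeR adjusted p = 0.0537) and with the DESeq2 Wald test (adjusted p = 0.234). On the lower-numbered side tetur03g08410, with a log2 fold of 0.79, became 0.22 on library size alone and was then not called (edgeR adjusted p = 0.0784). The 7 neighbours that did not pass the test had log2 folds between -0.04 and 0.52. On library size alone 5 of these 7 were called lower, and without whole-body replicate 1 tetur03g08430 was called higher (edgeR adjusted p = 0.0419).

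Besides tetur03g08520, the untested neighbours were tetur03g08470, with 1 read in the proterosoma and 0 in every whole-body library, and tetur03g08490, with 0 reads in all 4. A count of 0, which allows up to 3 reads, limits a gene to 0.205 CPM in the proterosoma and to 0.111, 0.221 and 0.241 CPM in whole-body replicates 1, 2 and 3. In tetur03g08490 no reads were thus detectable at this depth, which does not show that the gene was silent, while tetur03g08470 and tetur03g08520 were read at the few counts given.

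**Figure D4:**
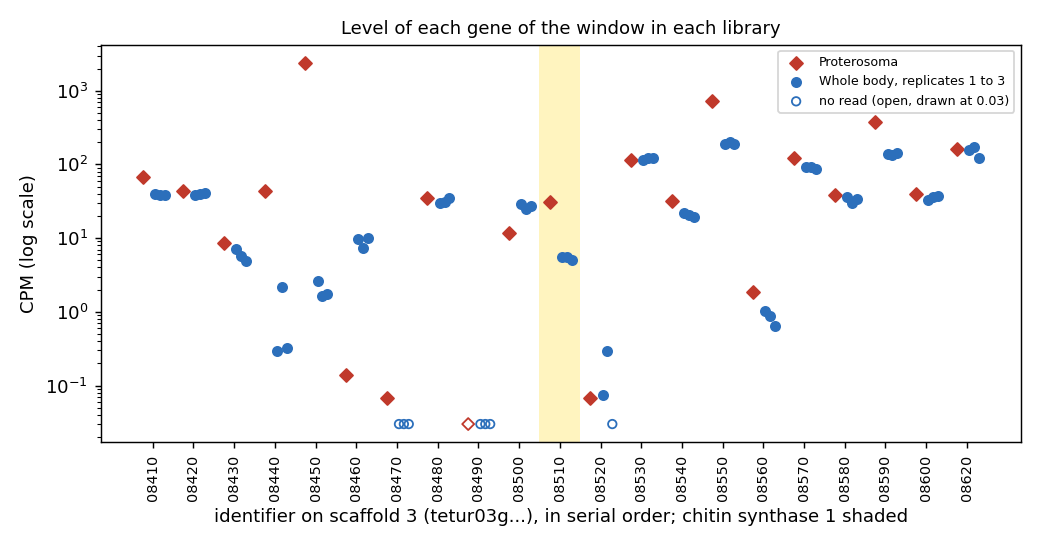
CPM (log scale) of chitin synthase 1 (shaded) and its neighbours in the proterosoma library (diamonds) and the 3 whole-body libraries (circles), with libraries without a read drawn open at the bottom; levels of different genes are not corrected for length. At chitin synthase 1 the diamond, at 31.2 CPM, stands clear of the circles at 5.05 to 5.48 CPM, while at tetur03g08530, with 116 CPM against 115, 122 and 121 CPM, diamond and circles fall together.

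The number of chitin synthase 1 reads for each read of a neighbour compares the genes within a library, so neither the scaling between libraries nor the lengths of the genes bear on how it differs between libraries. For all 17 tested neighbours this ratio lay outside the whole-body range in the proterosoma library. It was above that range for 15 neighbours and below it for 2, tetur03g08440 and tetur03g08450. This count follows the order of the folds, and over all genes tested 16.5% had a larger log2 fold than chitin synthase 1. The count is therefore not read as a trait of the neighbours. With 1 library against 3, an exact permutation test cannot give a one-sided p below 0.25, so no p is given. Since the same chitin synthase 1 reads enter every ratio, the 15 are not independent.

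Against the adjacent tetur03g08500 the ratio was 2.65 in the proterosoma, against 0.191, 0.222 and 0.182 in the whole-body libraries, 13.4 times the whole-body mean. Against tetur03g08530, whose own level hardly moved under TMM scaling, it was 0.269 in the proterosoma, against 0.0478, 0.0449 and 0.0417, which is 6.01 times the mean. The narrowest gap was to tetur03g08550, at 0.0428 in the proterosoma, against 0.0288, 0.027 and 0.0264, which is 1.56 times the mean of 0.0274 ± 0.00128 (SD, n = 3). Chitin synthase 1 thus gained on each of these neighbours in the front body, least on the one that itself rose most on its higher-numbered side.

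**Figure D5:**
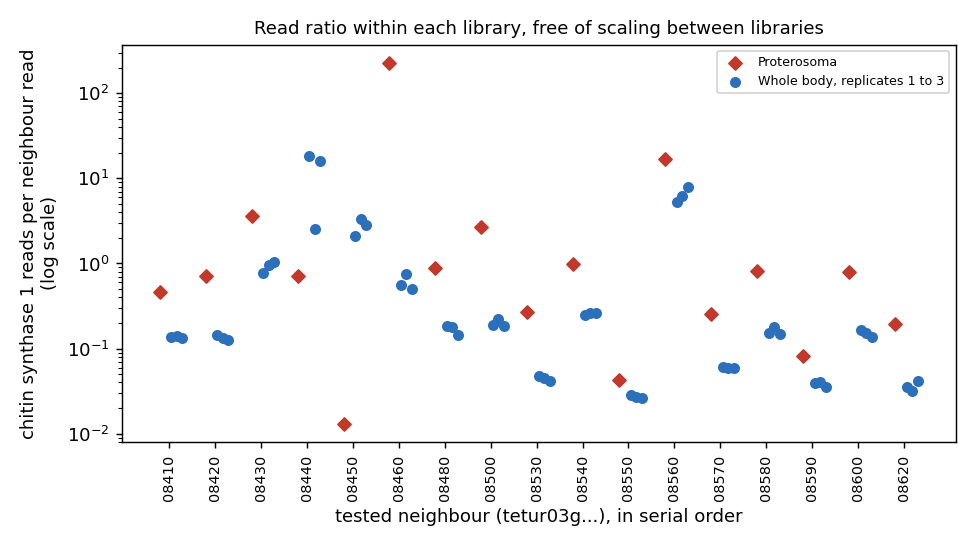
Reads of chitin synthase 1 per read of each tested neighbour (log scale) in the proterosoma library (diamonds) and in the 3 whole-body libraries (circles). The diamond lies above all circles for 15 of 17 neighbours and below them at tetur03g08440 and tetur03g08450.

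As a share of all reads of its window, chitin synthase 1 took 0.731% in the proterosoma, against 0.581%, 0.565% and 0.55% in whole-body replicates 1, 2 and 3. The window's proterosoma reads were mostly those of tetur03g08450. With that gene left out, the share was 1.67% in the proterosoma, against 0.582%, 0.565% and 0.551%.

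Over scaffold 3 as a whole the values were close to those over all genes. Of its 680 tested genes, 41.5% were called higher in the proterosoma and 39.7% lower, beside 41.0% and 40.4% of all genes, and its median log2 fold was -0.08. A larger fold than that of chitin synthase 1 was found for 119 of them, or 17.5%, beside 16.5% over all genes.

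The genes with the pattern most like that of chitin synthase 1 were sought by the root mean square difference of log2(CPM + 0.5) over the 4 libraries, after centring each gene, among 8242 other tested genes whose mean CPM reached 10. The closest were tetur11g05130, tetur06g02850, tetur05g01320, tetur09g05500 and tetur27g01170, each on another scaffold, at distances of 0.00962, 0.0239, 0.0357, 0.0368 and 0.0389 log2 units. Their log2 folds were 2.44, 2.52, 2.51, 2.48 and 2.49 in that order, beside 2.54 for chitin synthase 1. The added 0.5 lowers the fold of a gene at a low level more, so this distance depends partly on level. The closest, tetur11g05130, had 480 CPM in the proterosoma, against 91, 89.1 and 84.3 CPM in the whole-body libraries. The second, tetur06g02850, had 77.7 CPM in the proterosoma, against 13.8, 13.9 and 12.7 CPM.

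Such likeness was not confined to these 5 genes: of the 8242 compared, 78 lay within 0.1 log2 units and 389 within 0.25, beside a median distance of 1.35. Of the 389, 21 were on scaffold 3. That scaffold held 680 of the 13278 genes tested, but its share of the 8242 compared is not given here. With only 4 libraries, and counting error in the whole-body values of chitin synthase 1 larger than the distances between the closest genes, the order of these genes is not firm. Leaving out any 1 whole-body library kept 2 of the 5, and a pseudocount of 2 in place of 0.5 kept 0 of them.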

How the data were processed

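RNA from adult females was sequenced in 4 strand-specific libraries, per the labels' protocols. The deposited gene table holds raw counts per gene. The submitters' processing notes list the aligner STAR (2.5.0b), the counter HTSeq (0.6.0) and DESeq2 (1.6.3). Not given in the sources used here are the genome build, the strand setting and how multiply mapping reads were handled, so overlapping genes, antisense genes and near-identical copies may share reads. A table of the authors' own comparison was deposited too, giving for each gene a mean signal after normalisation, a log2 fold change and its error, a score and p-values. Its header names no numerator, but for 100% of the 8369 genes with an absolute log2 fold of at least 1 that were tested here, its sign matched proterosoma divided by whole body in the counts. The number of unused sample columns was 0.

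The edgeR 4.0.16 quasi-likelihood F test was run on the counts in R 4.3.3 after TMM scaling and filterByExpr, with all 4 libraries in 1 model, 2 residual and 3.82 prior degrees of freedom, and Benjamini-Hochberg adjustment over 13278 genes at 0.05. Standard errors (SE) were obtained as the absolute log2 fold over the root of F. The script was tested on simulated data in which few genes changed and all libraries had the same spread. That test could not check the scaling where most genes differ, nor the spread assumed for the proterosoma. The sources used here do not tell separate mite cultures from repeat preparations, so p-values reflect a spread between samples that may be technical. Whole-body pairs differed by more than sampling noise (chi-square per degree of freedom 14.7 to 26.4). Alternatives were DESeq2 1.42.0, limma-voom (limma 3.58.1), a robust fit, 3 other scalings, 2 other filters, other windows and pseudocounts, and leaving out whole-body libraries in turn. Of the neighbours, those named were the nearest, the extremes, the most read, those at least 4-fold different and those untested, plus others named after their values were seen. The gene, its neighbours and the tests were chosen with earlier results of these data known.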

Additional observations from a re-analysis of the deposited data

How the results depend on the processing

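Recomputation gave 73 values, of which 54 were unaltered in direction and call or lay within the set limits, 19 moved and 0 reversed. The log2 fold of chitin synthase 1 kept its call in all 12 refits, including a test against a 2-fold change chosen after seeing the data (edgeR glmTreat adjusted p = 3.62e-05). It was 1.97 when scaled to RP49 and ubiquitin together and 2.35 as log2(CPM + 1) of group means. Library size alone gave 4 neighbours higher and 7 lower, and levels of 23.2 CPM in the proterosoma and 5.89 CPM in intact females. The test against a 2-fold change left 4 higher and 1 lower, because it asks for more than a difference from 0. Shares over all genes are not given for that test or for fits without single whole-body libraries. With 5 identifiers on either side, 3 neighbours were called higher and 2 lower. With 20 on either side, 14 were called higher and 11 lower, so most of the lower ones lay beyond the main window. Over all genes 41.0% were called higher and 40.4% lower. These windows hold other numbers of genes, so their counts do not compare directly. The place by fold was 4 with a filter of at least 1 count and with the DESeq2 Wald test, because tetur03g08470, with its 1 read, then entered the order. Without single whole-body libraries, called neighbours numbered 7 to 9 higher and 2 lower, the place stayed 3, the whole-body level was 5.25 to 5.47 CPM and its rank the top 48.4% to 48.9%. Among genes with a read, the rank was the top 33.9% in the proterosoma and 56.8% in whole bodies. Of the 5 most similar genes, 5 were kept on library size alone, 0 with a pseudocount of 2, and 2 without any 1 whole-body library. No paired analysis was possible because the front body has 1 library here. Depth limits the unread neighbours and the whole-body values of chitin synthase 1, which rest on 63 to 148 reads. Apart from the changes of construction named here, the cause was not tested.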
